A study of Rattus norvegicus with 6 samples.

Results

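The organic anion transporting polypeptides (Slco genes) were described in rat renal cortex as 9 genes: Slco1a1, Slco1a3, Slco1a5, Slco1a6, Slco2a1, Slco2b1, Slco3a1, Slco4a1 and Slco4c1. They were found through the RefSeq accession of their probes, which gave 14 probes for these 9 genes, among 32428 tested features of which 11815 carried a gene symbol. Accessions of 14 Slco genes were on the array, and the 5 others are given where they bear on these 9. RNA came from 6 male Sprague-Dawley rats, bought at 5 weeks of age, of which 3 were given corn oil, the vehicle, and 3 were given o-nitroanisole at 400 mg/kg/day, each for 4 weeks. o-Nitroanisole is a nitroaromatic compound, also called 2-nitroanisole. Each rat gave 1 Cy3 array, and the labels call the 3 arrays of a group biological replicates. The genes were chosen with the difference between these groups already known, so every difference between groups for an Slco gene is given here as a description and not as a test.

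Organic anion transporting polypeptides are membrane carriers that move large, mostly anionic molecules across cell membranes independently of sodium, among them bile acids, steroid conjugates, thyroid hormones, prostaglandins and many drugs. In the kidney they sit in tubule cells on the side facing the urine or the side facing the blood, depending on the carrier. In rats and mice the Slco1a branch has several close members lying in a row on 1 chromosome, and the renal level of Slco1a1 is known to be higher in males than in females.

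Levels are given as scaled signal, the processed signal of a probe divided by the 75th percentile of its array, so that a value of 1 is the signal at that percentile. A probe's brightness depends on the probe as well as on the RNA, so levels were compared between rats and never between genes. The 75th percentile lay between 904.9 and 1041 signal units, and the share of probes well above background on an array ran from 66.4% to 71.5%. Slide 1 held the corn oil group and slide 2 the o-nitroanisole group, so slide and treatment cannot be told apart. Kidney markers were detected: 16 of 16 proximal tubule and 8 of 8 podocyte markers were well above background on all 6 arrays. The same held for 12 of 12 collecting duct and 4 of 4 inner medulla markers. Detection therefore cannot tell the labelled cortex from whole kidney. The summed scaled signal was 2990 to 3010 in corn oil and 3190 to 3230 in o-nitroanisole for the proximal tubule list, and 46.7 to 53.8 against 52.7 to 61.4 for the podocyte list. It was 483 to 528 against 411 to 438 over 6 tested of 9 markers of the loop of Henle and distal tubule. Members of this list differed in direction. The log2 differences of Umod, Cldn16, Cldn10 and Kcnj1 were -0.25, -0.41, -0.29 and -0.09. Those of Slc12a3 and Calb1 were 0.39 and 0.64, both, like Kcnj1, with overlapping groups. The sum was 226 to 244 against 254 to 296 over 12 of 12 collecting duct markers. For the inner medulla list of 4 it was 18.3 to 50.9 against 15.2 to 18.5, a sum made up mainly of Cryab. The log2 difference was -0.96 for Cryab and 0.24, 0.04 and 0.01 for Akr1b1, Bdkrb2 and Slc14a2, all with overlapping groups. For 8 tested of 10 red blood cell markers the sum was 430 to 499 against 670 to 819. Sums were 31.5 to 33.4 against 33.6 to 36.9 for 9 endothelium and vessel wall markers, 17.2 to 21.0 against 14.6 to 21.0 for 8 of 9 macrophage markers and 1.67 to 2.31 against 1.77 to 2.15 for 6 of 8 lymphocyte markers. Of 8 adrenal and fat markers 3 were tested, with sums of 0.96 to 1.09 against 1.02 to 1.28, while Star, Cyp11b1, Cyp11b2 and Lep were too dim to be tested. In pieces of whole tissue, fewer cells of a type and less RNA per cell cannot be told apart.

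The 4 Slco1a genes, Slco1a1, Slco1a3, Slco1a5 and Slco1a6, were lower in every o-nitroanisole rat than in any corn oil rat, by log2 differences from -1.71 to -1.22 with standard errors (SE) of 0.29 to 0.36. Slco3a1 was lower by less, also without overlap between the groups. Slco4c1 was lower on average but with overlap. Slco2a1 and, by its brighter probe, Slco4a1 were higher in every o-nitroanisole rat, by less than 1 on the log2 scale. The 2 probes of Slco2b1 disagreed, at -0.04 log2 with overlap and 0.54 without. The brightest probe of each of the 9 genes was well above background on all 6 arrays. With limma's default moderation 0 of 9 genes, and 0.0% of all features, passed an adjusted p of 0.05. With trend and robust moderation 0 of 9 passed, where 1.61% of all features did, and under normexp background correction 0 of 9, where 0.355% did. At an unadjusted p under 0.05 the default fit held 7 of the 9, where it held 18.9% of all features: 5 lower (7.12%) and 2 higher (11.8%). For 7 of 9 genes, and for 27.2% of all features, the groups lay apart, with o-nitroanisole lower for 5 (9.56%) and higher for 2 (17.6%). A log2 difference of -1 or below was seen for 5 of 9 genes and for 1.03% of all features. The median log2 difference was -1.07 over the 9 genes and 0.03 over all features. Because the genes were chosen on this contrast, nothing is read from these counts.

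**Figure D1:**
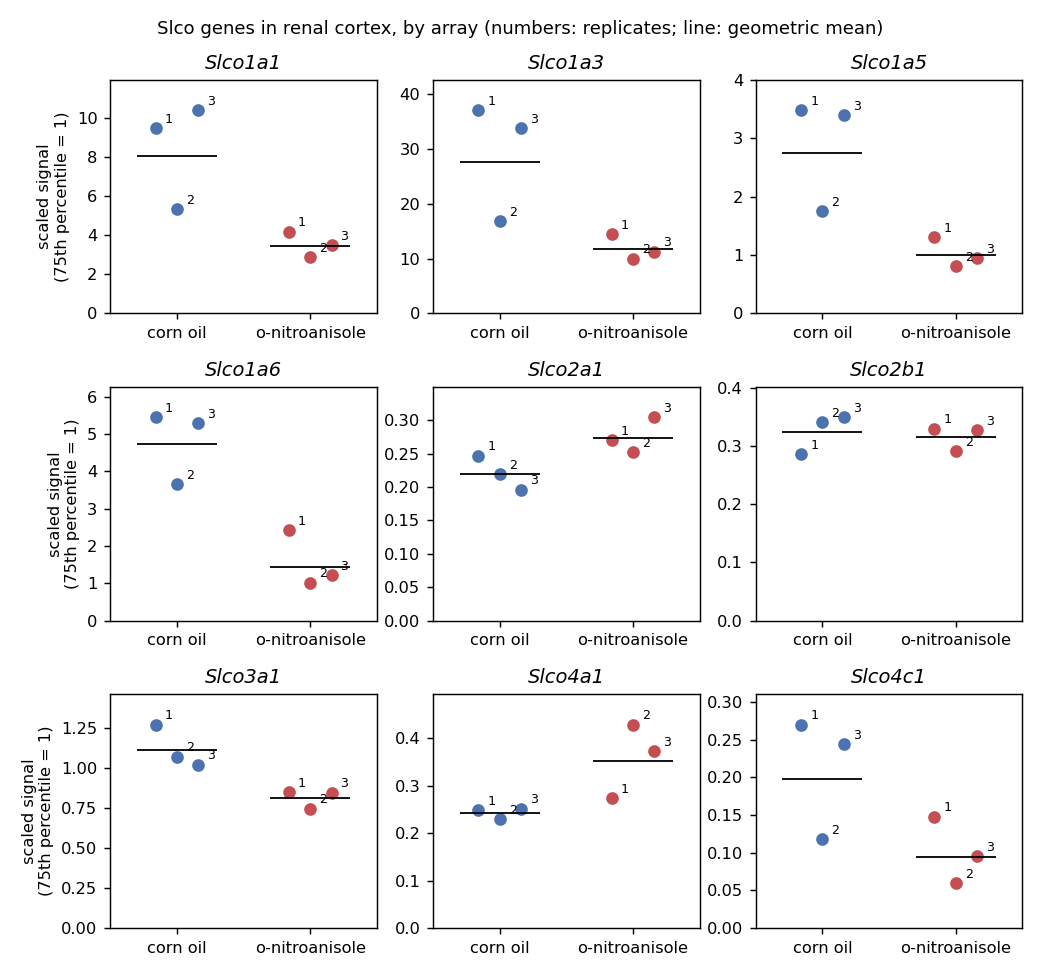
Scaled signal (linear, with the array's 75th percentile set to 1) of the brightest probe of each of the 9 Slco genes in each rat; points are arrays numbered by replicate, and the line is the geometric mean of the group. The 4 Slco1a panels show o-nitroanisole rats below all corn oil rats, with corn oil rat 2 the lowest of its group, while Slco2a1 and Slco4a1 show o-nitroanisole rats above.

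Slco1a6, called Oatp5 when it was cloned from rat kidney, had the largest difference of the 9. Its scaled signal was 5.44, 3.65 and 5.28 in corn oil rats 1, 2 and 3, and 2.42, 1.02 and 1.21 in o-nitroanisole rats 1, 2 and 3. The groups did not overlap, with the lowest corn oil rat 0.59 log2 above the highest o-nitroanisole rat. The log2 difference was -1.71 ± 0.36 (SE, n = 3 per group), a level 3.27-fold lower, and ranged from -2.08 to -1.46 when 1 array at a time was left out. The spread between o-nitroanisole rats (SD 0.66 log2) was larger than that between corn oil rats (0.32), through o-nitroanisole rat 1.

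Slco1a5, or Oatp3, is a carrier of bile acids and thyroid hormones in the rat. In corn oil rats 1 to 3 its scaled signal was 3.48, 1.75 and 3.39, and in o-nitroanisole rats 1 to 3 it was 1.31, 0.813 and 0.945. Corn oil rat 2 lay well below the other corn oil rats and 0.42 log2 above the highest o-nitroanisole rat, so the groups did not overlap. The log2 difference was -1.45 ± 0.32 (SE, n = 3 per group), a 2.74-fold lower level, and it ranged from -1.78 to -1.28 on leaving out 1 array.

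Slco1a3 encodes the kidney-specific rat carriers OAT-K1 and OAT-K2, which transport methotrexate and folates in the proximal tubule. By its brightest probe the scaled signal was 37.1, 16.8 and 33.8 in the corn oil rats and 14.5, 9.96 and 11.3 in the o-nitroanisole rats. Corn oil rat 2 lay only 0.22 log2 above o-nitroanisole rat 1, the narrowest gap of the 4 Slco1a genes. This made a log2 difference of -1.23 ± 0.33 (SE, n = 3 per group), a 2.35-fold lower level, with a range from -1.59 to -1.02 on leaving out 1 array. The other 2 probes gave -1.36 and -1.39, so that all 3 probes of this gene went the same way by similar amounts.

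Slco1a1, or Oatp1, carries bile acids and steroid conjugates at the luminal membrane of the rat proximal tubule. Its scaled signal was 9.49, 5.32 and 10.4 in corn oil rats 1, 2 and 3, against 4.18, 2.87 and 3.48 in o-nitroanisole rats 1, 2 and 3. The groups were apart by 0.35 log2 at their nearest arrays. The log2 difference was -1.22 ± 0.29 (SE, n = 3 per group), a level 2.33-fold lower. It ranged from -1.52 without corn oil rat 2 to -1.03 without corn oil rat 3. The 4 Slco1a differences lie within a span smaller than 2 of their SEs, and whether they differ from each other was not tested.

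**Figure D2:**
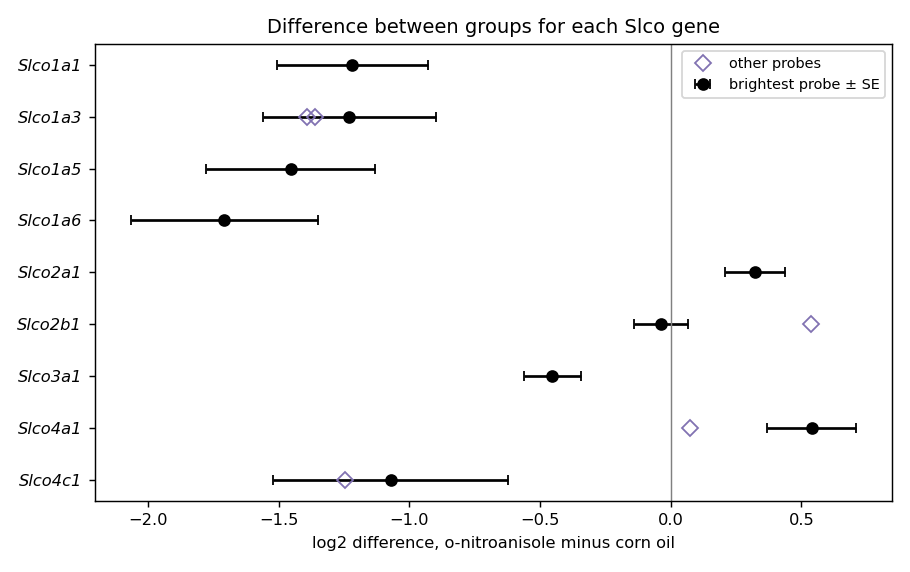
Log2 difference, o-nitroanisole minus corn oil, for each Slco gene; filled points are the brightest probe with its SE, and open diamonds are the gene's other probes. The Slco1a genes and Slco4c1 lie near or below -1, all probes of Slco1a3 and Slco4c1 lie on one side, and the probes of Slco2b1 and Slco4a1 spread apart.

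The Slco1a genes lie side by side on rat chromosome 4 in the reference gene order of assembly GRCr8, in the order Slco1c1, Slco1b2, Slco1a4, Slco1a1, Slco1a3, Slco1a6 and Slco1a5. The groups were apart for the last 4 genes of this row. Slco1a4, or Oatp2, known in rats as a carrier of digoxin in liver and at the blood-brain barrier, is next to Slco1a1 and had a scaled signal of 0.0908, 0.0753 and 0.0393 in corn oil rats and 0.0692, 0.0971 and 0.0566 in o-nitroanisole rats. Its groups overlapped, with a log2 difference of 0.17 ± 0.36 (SE, n = 3 per group), and its other 2 probes were dim, 1 of them well above background on no array. Slco1b2, the main hepatic carrier of this branch, exceeded background clearly on 2 of 3 corn oil and 1 of 3 o-nitroanisole arrays, and Slco1c1, a thyroxine carrier of brain capillaries, on 0 of 3 and 1 of 3, so neither was tested. The tested genes flanking the row, 5 on each side, had log2 differences from -0.08 to 0.38 with a median of 0.16. Recql, a DNA helicase, lay lowest at -0.08 ± 0.07 and Ldhb, a lactate dehydrogenase subunit, highest at 0.38 ± 0.10. Mgst1, a microsomal glutathione transferase on the other side of the row, lay at 0.36 ± 0.08. The Slco1a genes are close relatives, and cross-reaction of a probe with the RNA of a relative was not tested, since probe sequences were not used here.

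**Figure D3:**
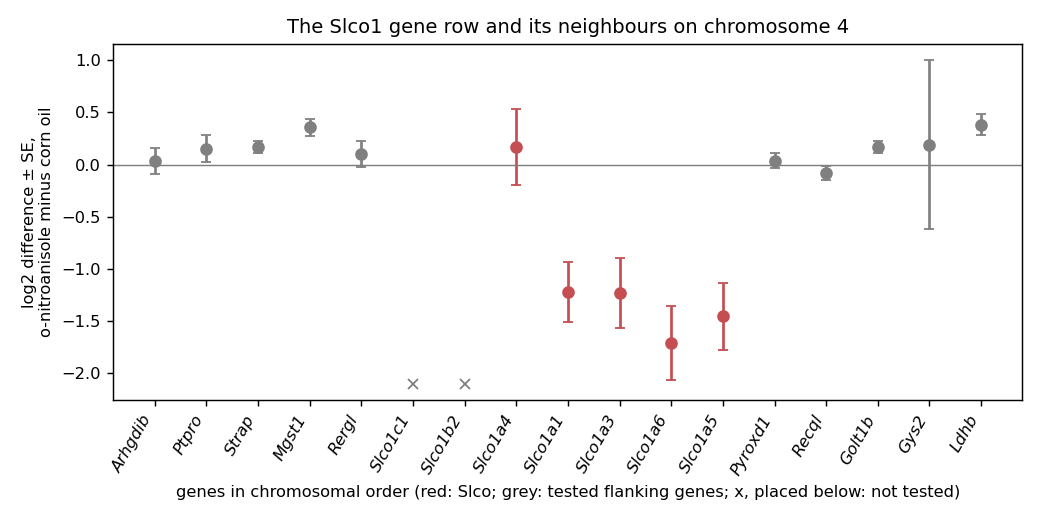
Log2 difference with its SE for the Slco1 genes (red) and 5 tested genes on either side (grey), ordered by position on rat chromosome 4 and evenly spaced; crosses placed at the bottom are Slco genes too dim to be tested. Slco1a1, Slco1a3, Slco1a6 and Slco1a5 stand below -1, and Slco1a4 and the flanking genes lie near 0 or above it.

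The 250 bases before the RefSeq start of the 4 lower Slco1a genes and of their neighbour Slco1a4 are shown because these 5 genes lie side by side and the groups were apart in 4 of them and overlapped in Slco1a4. All 5 lie on the minus strand and are written from 5′ to 3′ in the direction of the gene, from the RefSeq promoter table of GRCr8. They are chr4:176681993-176682242 for Slco1a1, chr4:176495847-176496096 for Slco1a4, chr4:176749724-176749973 for Slco1a3, chr4:176839033-176839282 for Slco1a6 and chr4:176963813-176964062 for Slco1a5. Capitals mark the motifs found: in Slco1a1 the reverse complement of AGAACA, and in Slco1a6 GCGTG.
Slco1a1: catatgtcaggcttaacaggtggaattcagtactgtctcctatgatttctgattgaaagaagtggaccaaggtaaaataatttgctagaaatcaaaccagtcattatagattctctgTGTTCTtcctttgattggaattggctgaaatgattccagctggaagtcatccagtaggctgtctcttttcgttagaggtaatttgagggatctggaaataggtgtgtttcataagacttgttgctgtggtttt
Slco1a4: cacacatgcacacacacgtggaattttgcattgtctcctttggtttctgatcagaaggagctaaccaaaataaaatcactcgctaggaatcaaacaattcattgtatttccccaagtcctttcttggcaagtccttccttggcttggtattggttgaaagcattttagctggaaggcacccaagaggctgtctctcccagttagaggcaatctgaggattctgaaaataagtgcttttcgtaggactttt
Slco1a3: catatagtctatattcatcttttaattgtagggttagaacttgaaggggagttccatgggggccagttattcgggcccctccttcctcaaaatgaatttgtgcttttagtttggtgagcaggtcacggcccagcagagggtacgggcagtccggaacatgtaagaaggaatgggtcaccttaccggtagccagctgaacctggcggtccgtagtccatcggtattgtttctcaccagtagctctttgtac
Slco1a6: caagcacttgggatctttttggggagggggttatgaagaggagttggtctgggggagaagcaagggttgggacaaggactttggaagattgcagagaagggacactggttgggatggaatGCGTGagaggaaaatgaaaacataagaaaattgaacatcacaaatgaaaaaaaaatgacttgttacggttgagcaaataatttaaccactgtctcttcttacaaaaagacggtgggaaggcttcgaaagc
Slco1a5: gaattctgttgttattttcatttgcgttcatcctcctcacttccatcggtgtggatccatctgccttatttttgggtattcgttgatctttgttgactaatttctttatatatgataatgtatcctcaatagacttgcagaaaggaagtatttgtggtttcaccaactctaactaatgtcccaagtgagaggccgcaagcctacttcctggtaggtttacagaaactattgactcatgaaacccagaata

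By global alignment of these stretches, Slco1a1 and Slco1a4 were 67.3% identical, while the 6 pairs among the 4 lower genes were 45.1% to 52.4% identical and the 10 pairs among the other 5 family genes 47.6% to 51.2%. The groups were apart for Slco1a1 and overlapped for Slco1a4, which had a low scaled signal of 0.0393 to 0.0971 and an SE of 0.36. Whether upstream sequence bears on the differences was not tested. GC content was 38.4% for Slco1a1, 49.2% for Slco1a3, 38.4% for Slco1a5 and 43.2% for Slco1a6. In the other 5 genes it was 56.0% for Slco2b1, 64.4% for Slco2a1, 67.2% for Slco4c1, 68.0% for Slco4a1 and 73.2% for Slco3a1, so the 2 sets did not overlap. Slco1a4, whose groups overlapped, had 42.4%, within the range of the 4 lower Slco1a genes. Slco3a1 and Slco4c1, in the set with more GC, were also lower on average in o-nitroanisole. Whether GC content bears on the differences was not tested. Motifs were searched on both strands of the same 250 bases, and none of the matches found overlapped a match to another motif. GCGTG, the core of the site bound by the aryl hydrocarbon receptor, was in 1 of the 4 Slco1a stretches (Slco1a6, at position -130 from the start) and in 4 of 9 overall (with Slco2a1, Slco4a1 and Slco4c1), against 25.9% of 33469 rat promoters. AGAACA, a steroid receptor hexamer, was in 1 of 9 (Slco1a1, at position -133 from the start), against 17.5% of promoters. TGACNNNGC, the core of the antioxidant response element, was in 1 of 9 (Slco4c1) against 10.1%, and TTCNNNGAA, a STAT palindrome, in 1 of 9 (Slco2b1) against 7.67%. A match describes letters only.

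Slco4c1 encodes the basolateral carrier through which rat proximal tubule cells take up digoxin and thyroid hormone from the blood. By its brighter probe the scaled signal was 0.27, 0.118 and 0.244 in corn oil rats 1, 2 and 3, and 0.148, 0.0596 and 0.0951 in o-nitroanisole rats 1, 2 and 3. Corn oil rat 2 lay below o-nitroanisole rat 1, so the groups overlapped. The log2 difference was -1.07 ± 0.45 (SE, n = 3 per group), with a 95% interval from -2.18 to 0.04, and the dimmer probe, whose groups did not overlap, gave -1.25. Under normexp background correction it was -0.65, over 1.5 times nearer to 0.

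Slco3a1, a broadly expressed carrier of prostaglandins, had a scaled signal of 1.27, 1.07 and 1.02 in corn oil rats and 0.849, 0.744 and 0.845 in o-nitroanisole rats. The groups lay 0.26 log2 apart at their nearest arrays. Its log2 difference was -0.45 ± 0.11 (SE, n = 3 per group), a level 1.37-fold lower, with a spread between rats of 0.17 log2 (SD) in corn oil and 0.11 in o-nitroanisole, smaller than for the Slco1a genes.

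Slco2a1 encodes the prostaglandin transporter, which clears prostaglandin E2 from outside the cell. Its scaled signal was 0.247, 0.219 and 0.196 in corn oil rats and 0.27, 0.252 and 0.304 in o-nitroanisole rats. The lowest o-nitroanisole rat lay 0.03 log2 above the highest corn oil rat, so the groups were barely apart. It differed by 0.32 ± 0.12 log2 (SE, n = 3 per group), a 1.25-fold higher level.

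Slco4a1, a widely expressed carrier of thyroid hormones, had a scaled signal of 0.248, 0.229 and 0.252 in corn oil rats and 0.274, 0.429 and 0.373 in o-nitroanisole rats by its brighter probe. O-nitroanisole rats 2 and 3 were well above the corn oil rats and rat 1 was close to them. In log2 terms the difference was 0.54 ± 0.17 (SE, n = 3 per group), a 1.45-fold higher level. The dimmer probe, also well above background on all arrays, gave a log2 difference of 0.07, with 0.0487, 0.0435 and 0.0517 in corn oil rats and 0.0424, 0.0664 and 0.0453 in o-nitroanisole rats, groups that overlapped.

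Slco2b1 encodes a carrier of steroid sulfates with a broad tissue range. Its brighter probe read 0.286, 0.341 and 0.349 in corn oil rats and 0.33, 0.291 and 0.327 in o-nitroanisole rats, with overlap, and gave a log2 difference of -0.04 ± 0.10 (SE, n = 3 per group, 95% interval from -0.29 to 0.22). The dimmer probe read 0.171, 0.118 and 0.13 against 0.232, 0.177 and 0.195, without overlap, and gave 0.54. The 2 probes carry the same accession and disagree, so no direction is given for this gene.

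Of the other Slco genes on the array, Slco5a1 had a scaled signal of 0.107, 0.104 and 0.08 in corn oil rats and 0.055, 0.0476 and 0.111 in o-nitroanisole rats. Its groups overlapped through o-nitroanisole rat 3, and its log2 difference was -0.54 ± 0.34 (SE, n = 3 per group), while its dimmer probe, without overlap, gave -0.49. Slco6c1, a gene known from rat testis, was well above background on no array.

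Rats of the same group also differed in the Slco1a genes and Slco4c1, and the lowest corn oil rat and the highest and lowest o-nitroanisole rats were the same for all 5. The highest corn oil rat was rat 3 for Slco1a1 and rat 1 for the other 4. Corn oil rat 2 was the lowest corn oil rat for all 4 Slco1a genes and for Slco4c1, by -0.60 log2 from the group's mean for Slco1a1, -0.72 for Slco1a3, -0.65 for Slco1a5, -0.37 for Slco1a6 and -0.75 for Slco4c1. O-nitroanisole rat 1 was the highest of its group for the same 5 genes, by 0.27 log2 for Slco1a1, 0.30 for Slco1a3, 0.39 for Slco1a5, 0.75 for Slco1a6 and 0.65 for Slco4c1. O-nitroanisole rat 2 was the lowest of its group for 8 of the 9 Slco genes, these 5 included, and Slco4a1 was the exception. These within-group values were not used in choosing the genes, but the rats named here were picked after their values were seen. The 5 genes had similar profiles, and cross-reaction among Slco1a probes was not tested. They are therefore not 5 separate observations, and nothing is read from the counts that follow. Over all features, corn oil rat 2 was lowest in 33.0% and o-nitroanisole rat 1 highest in 31.0%, and both held for 11.2% of features and for 5 of the 9 Slco genes. Corn oil rat 2 and o-nitroanisole rat 2, which are different animals, were each the lowest of their own group in 11.5% of features and in 5 of the 9. Their shared number is not read as a link, since the numbers of the corn oil rats are not settled. SDs within corn oil were 0.32 to 0.63 log2 for the Slco1a genes and 0.66 for Slco4c1, against a median of 0.12 over all features. Slco2a1, Slco2b1 and Slco3a1 varied less, with SDs of 0.10 to 0.17 in either group.

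**Figure D4:**
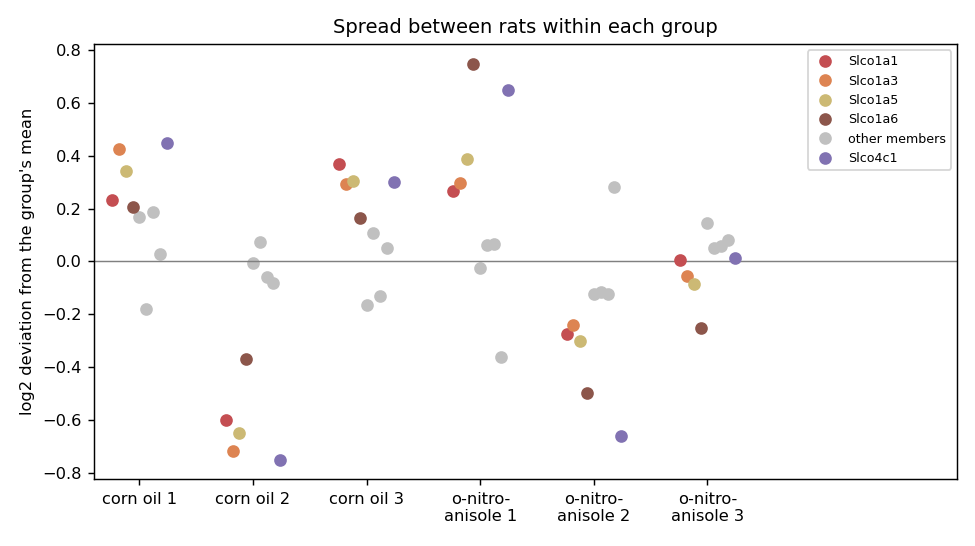
Log2 deviation of each array from the mean of its own group for the 9 Slco genes; coloured points are the Slco1a genes and Slco4c1, grey points the other 4 genes. In corn oil rat 2 and o-nitroanisole rat 2 the coloured points lie below 0, and in o-nitroanisole rat 1 they lie above 0, while most grey points stay within 0.2 of 0.

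Likeness of profiles was measured as the root mean square distance between log2 profiles over the 6 arrays, each centred on its own mean. Among the Slco1a genes it was 0.10 to 0.37 log2, with Slco1a1 and Slco1a3 nearest at 0.10, and it was 0.24 to 0.40 between them and Slco4c1. Between the Slco1a genes and the other 4 it was 0.50 to 1.27. Outside the family, the genes most like Slco1a6 were Slc7a13, an acidic amino acid and cystine carrier of the proximal tubule, at a distance of 0.17, Hnmt, the histamine methyltransferase, at 0.20 and the amino acid transporter Slc7a12 at 0.22. Slc7a13 had a scaled signal of 176, 103 and 152 in corn oil rats and 81.8, 40.7 and 43.5 in o-nitroanisole rats, again with corn oil rat 2 lowest and o-nitroanisole rat 1 highest of their groups. Most like Slco1a5 were Dhrs7l1 at 0.08, Agt, which encodes angiotensinogen, at 0.09 and Pkd2l2 at 0.15. Agt read 11.1, 4.95 and 9.15 in corn oil rats and 3.79, 2.52 and 2.53 in o-nitroanisole rats. Among the genes most like Slco1a3 were Rgn, which encodes regucalcin, at 0.14 and Apoh, beta-2-glycoprotein I, at 0.14. These profiles hold both the difference between the groups and the spread within them.

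Renal sex-biased genes were examined beside the Slco genes, because Slco1a1 is one of them. Of 11 listed genes 10 were tested and 0 passed the adjusted threshold, with a median log2 difference of -0.34. At an unadjusted p under 0.05 there were 4 lower and 1 higher, where 7.12% of all features were lower and 11.8% higher. The list was not split by the sex in which a gene is higher. Its counts and median therefore give no direction of sex bias. Cyp2c11, the male-specific P450 of rat liver, read 2.63, 0.103 and 4.79 in corn oil rats and 0.24, 0.0807 and 0.261 in o-nitroanisole rats. Corn oil rat 2 again lay lowest of its group, within the range of the o-nitroanisole rats, and the log2 difference of -2.66 ± 1.51 (SE, n = 3 per group) is smaller than 2 of its SEs. Odc1, which makes putrescine and responds to androgen in rodent kidney, lay at -0.79 ± 0.22 without overlap. Its lowest values were 6.48 in corn oil rat 2 and 4.05 in o-nitroanisole rat 2. Slc22a7, the organic anion carrier OAT2, read 1.1, 1.02 and 0.925 against 0.603, 0.45 and 0.541, at -0.94 ± 0.13, and did not show a low corn oil rat 2. Corn oil rat 2 was the lowest corn oil rat for 6 of these 10 genes, where 33.0% of all features were so placed. It was also lowest for 4 of 8 red blood cell and 4 of 8 macrophage markers, but for 1 of 8 podocyte and 0 of 6 lymphocyte markers. The list was chosen with earlier results known, so nothing is read from this count.

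**Figure D5:**
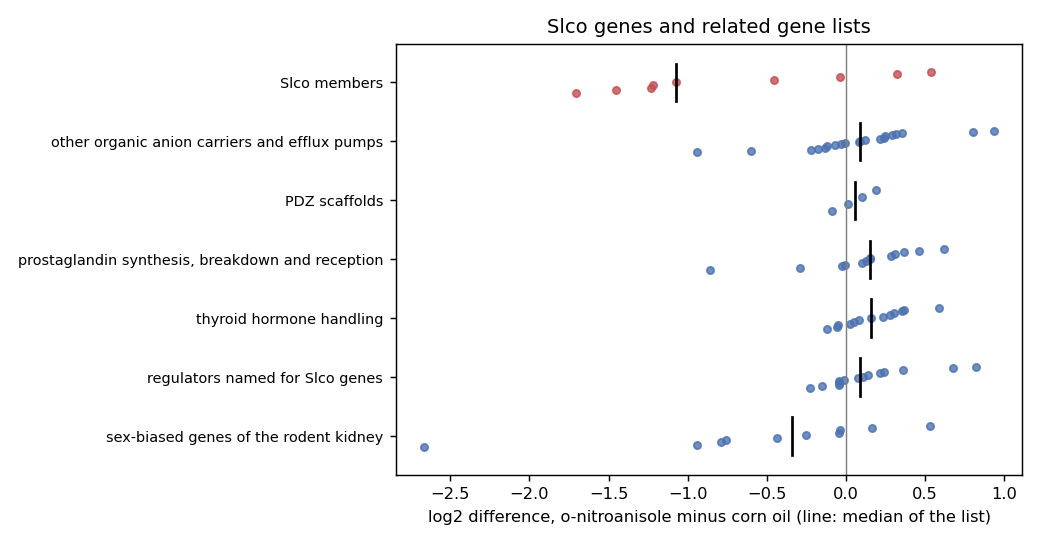
Log2 difference, o-nitroanisole minus corn oil, of each tested gene in the set of 9 Slco genes (red) and in 6 related lists (blue); the black line is the median of a list. The median of the 9 Slco genes lies at -1.07, the sex-biased list's at -0.34 and those of the other 5 lists drawn between 0.06 and 0.16.

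Other carriers of organic anions lay on both sides of 0, with Slc22a7, described above, lowest at -0.94 log2 and Abcc4 highest. Of 20 tested genes of 21 listed, 0 passed the adjusted threshold, and at an unadjusted p under 0.05 there were 6 higher and 1 lower, where 11.8% of all features were higher and 7.12% lower, with a median log2 difference of 0.09 (0.03 over all features). The apical efflux pump Abcc4 read 3.99, 5.11 and 4.0 in corn oil rats and 7.71, 8.19 and 9.06 in o-nitroanisole rats, at 0.94 ± 0.12 log2 (SE, n = 3 per group). Abcc2, another apical pump for conjugates, read 2.64, 2.26 and 2.24 against 4.13, 4.62 and 3.7, at 0.80 ± 0.11. The basolateral uptake carriers Slc22a6 and Slc22a8 lay at 0.29 and 0.31 log2, without overlap. Among PDZ scaffolds, proteins that hold carriers at the membrane, Pdzk1, which binds Oatp1a1 in rodents, read 70.8, 75.7 and 75.1 against 83.9, 84.0 and 85.3, at 0.19 ± 0.06 log2. The scaffold genes Nherf4 and Nherf2 lay at 0.10 and -0.09. Of these 4 scaffold genes 0 passed the adjusted threshold, and at an unadjusted p under 0.05 there was 1 higher (11.8% of all features) and 0 lower (7.12%).

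The prostaglandin list gives the setting of Slco2a1. Of 13 tested genes of 16 listed 0 passed the adjusted threshold, and at an unadjusted p under 0.05 there were 3 higher (11.8% of all features) and 1 lower (7.12%), with a median log2 difference of 0.15. Hpgd, which oxidises prostaglandins after their uptake, read 4.64, 4.81 and 6.19 in corn oil rats and 3.02, 3.02 and 2.53 in o-nitroanisole rats, without overlap, at -0.86 ± 0.14 (SE, n = 3 per group). The inducible cyclooxygenase Ptgs2 lay at 0.46 ± 0.18 and the prostaglandin D synthase Ptgds at 0.37 ± 0.26, both with overlapping groups.

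For thyroid hormone, a ligand of Slco4c1, Slco4a1 and Slco1a5, 13 of 14 listed genes were tested. With 0 past the adjusted threshold, 4 were higher and 0 lower at an unadjusted p under 0.05, where 11.8% and 7.12% of all features were, and the median log2 difference was 0.16 (0.03 over all features). The receptor gene Thrb lay at 0.59 ± 0.16 log2 without overlap, while Thrsp, a thyroid hormone target in liver and fat, at 0.37 ± 0.17 and the carrier Slc16a10 at 0.36 ± 0.14 had overlapping groups.

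Of 15 listed transcription factors named as regulators of Slco genes 14 were tested, 0 passed the adjusted threshold, and at an unadjusted p under 0.05 there were 3 higher (11.8% of all features) and 0 lower (7.12%), with a median of 0.09. Ppara, the fatty acid receptor, lay at 0.82 ± 0.46 log2 (SE, n = 3 per group) with overlapping groups. Vdr, the vitamin D receptor, lay at 0.68 ± 0.09 and Nr1h4, the bile acid receptor FXR, at 0.36 ± 0.10, both without overlap. Nr1h4 read 24.1, 27.4 and 28.3 in corn oil rats and 31.5, 33.8 and 36.9 in o-nitroanisole rats. Ahr, the aryl hydrocarbon receptor, lay at -0.23 with overlapping groups.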

How the data were processed

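Per the file headers, each scanner file holds spot intensities of 1 array from Agilent Feature Extraction (10.7 per the submitters' processing notes). The deposited processed signal is an intensity after background subtraction and detrending within the array. The deposited value table holds a linear ratio: each column equalled 1 scanner file's processed signal divided by its 75th percentile for 100% of probes well above background, within 1%. Its corn oil columns followed another replicate order (columns 2, 3 and 1 for scanner files 1, 2 and 3), so the numbers of the corn oil rats, taken here from the scanner files, are not settled; the groups agree. Column medians were 0.1012 to 0.1086, and scale, centring and direction are settled.

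Of 61657 non-control probes, 84 spike-in probes were left out. RefSeq accessions matched 27460 probes to symbols of a GRCr8 gene table; the array headers name build rn4, whose coordinates are not used, and the promoter coordinates and gene order given are those of GRCr8. Log2 processed signal less the 75th percentile of its array was compared between groups with limma 3.58.1 in R 4.3.3 (lmFit, eBayes, no covariate), with Benjamini-Hochberg adjustment over 32428 features. Tested probes (41096) were those well above background throughout 1 group or both; a gene was its brightest probe; outlier spots were set to missing, which touched no Slco probe. The fit was tested on simulated data. Promoters were searched and aligned with Python 3.11.15 and Biopython 1.88 (match 1, mismatch -1, gap opening -2, gap extension -0.5). The Slco genes and all lists were chosen with earlier results of these data known. Each Slco gene and each of its probes was named; from every other list, the 3 genes with the largest absolute difference among those on all arrays, and for the 3 Slco genes with the largest difference the 3 most alike genes; of these, 1 gene and 1 of the motifs searched are not reported here. Other genes named beside these were chosen after their values were seen, as were the comparison with flanking genes, the motifs and the account of single rats. Of the marker lists mainly sums are given, with single genes where members of a list differed from its sum. The normexp alternative used median signals in place of mean signals, which are not used here. The labels do not say that replicate numbers pair the rats, and the main fit did not pair them. Deviations from the group means of rats with the same number correlated at 0.091, 0.058 and 0.026. Those of rats with different numbers correlated at -0.097 to 0.034. Since the corn oil numbers are not settled, these values cannot decide whether the rats were paired.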

Additional observations from a re-analysis of the deposited data

How the results depend on the processing

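Across the settings tried, 0 of 9 Slco genes passed an adjusted p of 0.05 in any fit that was run, leaving out 1 array at a time included (0 to 0 genes). Over all features the count past 0.05 was 0, and it was 115 under normexp background correction and 522 with trend and robust moderation (0.355% and 1.61% of features). It was 0 to 4 on leaving out 1 array, the 4 without corn oil replicate 3; the causes were not tested. The replicate block called 0 features and 0 Slco genes and changed no call. Slide could not be fitted as a block, since no slide held both groups. Direction held for 8 of the 9 genes in every setting. Slco2b1 turned from -0.04 log2 to 0.25 with the mean of its probes, 0.54 by its dimmer probe, and 0.016 without corn oil replicate 3 or 0.02 without o-nitroanisole replicate 2; its leave-one-out range was -0.127 to 0.02. Slco4a1 moved from 0.54 to 0.31 with the mean of its probes. Slco4c1, with a scaled signal of 0.0596 to 0.27, moved from -1.07 to -0.65 under normexp background correction, and what signal over background contributes to this was not tested.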
